A study of Mus musculus with 6 samples.

Results

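The Reg family of secreted lectins was followed in whole mouse ileum. Its 7 members, Reg1, Reg2, Reg3a, Reg3b, Reg3d, Reg3g and Reg4, were taken by gene symbol from the annotation of the array, out of 19938 genes that had a probe set with exactly 1 symbol. Each member had 1 such probe set, so none had to be chosen among several. Ileum of 6 mice was hybridised to Affymetrix mouse Gene 1.0 ST arrays, 1 array per mouse. The 3 control mice carried Villin-CreERT2, a Cre recombinase that tamoxifen activates and that the Villin promoter drives in intestinal epithelium. The other 3 mice, labelled GATA6 KO, carried the same transgene and GATA6 flox/flox alleles. All mice, aged 6 to 8 weeks, had tamoxifen on 5 days running. Ileum was collected 28 days afterwards, when their stated age was 10 to 12 weeks. The ileum was not separated into layers, so each sample held muscle and connective tissue, where Villin-driven Cre is not active. In such bulk tissue fewer cells of a type and less RNA per cell cannot be told apart.

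Reg proteins are small secreted proteins built around a C-type lectin domain. Reg3b and Reg3g, made by enterocytes and Paneth cells, bind bacterial cell walls, and Reg3g kills Gram-positive bacteria and helps to keep bacteria off the surface of the small intestine. Their transcription in the gut follows microbial signals through the adaptor MyD88 and the cytokine IL-22, which acts through STAT3. Reg1 and Reg2 are best known from the exocrine pancreas and from regenerating islets, and Reg3d from its relation to a factor of islet growth. Reg4 lies outside the cluster of the other Reg genes; in mice it marks enteroendocrine cells of the small intestine and the deep crypt secretory cells of the colon.

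In the RefSeq annotation of GRCm38.p6, 6 members lie in 1 cluster on chromosome 6, with a pseudogene between Reg1 and Reg3g, in the order Reg3b, Reg3d, Reg3a, Reg2, Reg1 and Reg3g, and Reg4 lies on chromosome 3. The RefSeq promoter table of that build matched all 7 members, with 250 bases before each transcription start and 50 from it on. The promoters of Reg3b and Reg3g are shown because they belong to the brightest members, that of Reg3a because it had the largest decrease, and that of Reg4 because it rose. Capitals mark the letters of a GATA motif (GATA after A or T and before A or G, on either strand) or of a STAT motif (TTCNNNGAA, which reads alike on both strands).
Reg3b (chr6:78370635-78370934, plus strand): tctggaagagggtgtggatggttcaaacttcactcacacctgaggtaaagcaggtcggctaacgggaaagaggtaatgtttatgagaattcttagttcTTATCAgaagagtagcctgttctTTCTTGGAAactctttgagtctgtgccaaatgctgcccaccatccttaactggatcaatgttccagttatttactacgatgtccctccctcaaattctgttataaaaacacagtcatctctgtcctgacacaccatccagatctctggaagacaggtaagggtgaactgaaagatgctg
Reg3g (chr6:78468825-78469124, minus strand): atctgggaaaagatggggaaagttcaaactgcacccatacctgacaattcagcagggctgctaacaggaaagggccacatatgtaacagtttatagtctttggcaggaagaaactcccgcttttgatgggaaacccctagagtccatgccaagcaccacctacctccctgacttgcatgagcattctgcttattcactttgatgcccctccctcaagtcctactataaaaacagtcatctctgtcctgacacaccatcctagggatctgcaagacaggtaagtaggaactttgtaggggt
Reg3a (chr6:78380459-78380758, plus strand): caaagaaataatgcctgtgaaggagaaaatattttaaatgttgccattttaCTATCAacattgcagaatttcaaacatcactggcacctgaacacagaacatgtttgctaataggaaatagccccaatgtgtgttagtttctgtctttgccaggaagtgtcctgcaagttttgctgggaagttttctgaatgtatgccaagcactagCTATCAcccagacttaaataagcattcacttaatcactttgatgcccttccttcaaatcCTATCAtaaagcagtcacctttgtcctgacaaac
Reg4 (chr3:98221906-98222205, plus strand): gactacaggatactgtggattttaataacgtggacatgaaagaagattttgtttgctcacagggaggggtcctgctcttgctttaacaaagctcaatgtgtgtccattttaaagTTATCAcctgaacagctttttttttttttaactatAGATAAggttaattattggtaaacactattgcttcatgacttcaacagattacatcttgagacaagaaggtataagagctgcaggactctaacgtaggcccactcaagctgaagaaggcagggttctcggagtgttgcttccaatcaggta

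Positions are counted from the transcription start. The Reg4 promoter held GATA letters at 2 places, beginning 136 and 101 bases before the start, and no STAT letters. Reg3a held GATA letters at 3 places, 199 and 43 bases before the start and at base 17 from it on. Reg3b held GATA letters once, 152 bases before the start, and the STAT letters TTCTTGGAA 129 bases before it, while Reg3g held neither. In all, 5 of 7 members held GATA letters, against 29.8% of the 32817 promoters in the table, and 2 of 7, Reg3b and Reg3d, held STAT letters, against 8.29%. These matches describe letters in a window and show no binding. The letters TATAAA, searched on the gene's own strand after the promoters had been read, began 27 to 30 bases before the start in Reg1, Reg2, Reg3b and Reg3g. They stood anywhere in the window in 8.32% of all promoters.

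By global alignment the promoters of Reg3b and Reg3g were 69.0% identical, the highest of the 15 pairs in the cluster, and the other pairs there went down to 49.9%. Reg4 was 49.1% to 51.0% identical to the members of the cluster. Reg3b and Reg3g shared an unbroken run of 29 bases, which begins 20 bases before the start in both and is the longest run that any 2 members share.
Shared by Reg3b and Reg3g: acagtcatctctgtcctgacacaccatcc
Protein sequences were not used here. Reg genes are close relatives, and how far probes of Reg3b, Reg3g, Reg3a or Reg3d bind RNA of another member was not tested, so signals of near copies are uncertain in this respect.

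The targeted gene did not fall on the arrays: control arrays gave Gata6 log2 signals of 6.31, 6.33 and 6.50, and KO-labelled arrays gave 6.93, 6.81 and 6.86. The log2 difference was 0.49 (SE 0.08, limma adjusted p = 0.0162), and leaving out single arrays raised the adjusted p to as much as 0.0623. Whether its probes lie inside the deleted part of the gene is unknown here, so directions below are those of the arrays by their label. Control replicate 3 also stood apart in Xist, at 2.31 against 7.39 to 7.81 on the other 5 arrays, and in the Y-linked Eif2s3y, at 5.30 against 0.27 to 0.61, both genes named after their values were seen. Mean log2 signal over the absorptive enterocyte list lay between 8.05 and 8.46 in controls and between 6.26 and 6.84 in KO-labelled arrays, and Vil1, the villin gene, read at least 10.01 on every array. Vil1 itself fell by 0.41 on the log2 scale (SE 0.08, limma adjusted p = 0.0225), a call lost without the third control or any KO-labelled array (up to 0.0954). Markers of tissue outside the epithelium were higher, with positive fold changes in all 9 smooth muscle genes (median 0.33) and all 8 connective tissue genes (median 0.42). Of these, 1 in each list passed, and 7 and 5 had an unadjusted p under 0.05. The part of this shift in the Reg values was not tested. Nothing in the labels says that the mice came from separate litters or cages. The p-values therefore measure the spread between these mice, and 3 arrays per group limit the precision.

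Reg4 was the member that rose, and 3 members fell. At a limma adjusted p under 0.05, 1 of 7 members was higher in the KO-labelled arrays, where 4.99% of all genes were, and 3 of 7, Reg3a, Reg3d and Reg1, were lower, where 3.25% of all genes were. Reg3b, Reg3g and Reg2 did not pass. The 2 groups did not overlap in 6 of 7 members, against 29.3% of all genes tested. The median log2 fold change of the members was -0.45, while that of all genes was near 0 at -0.0043.

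**Figure D1:**
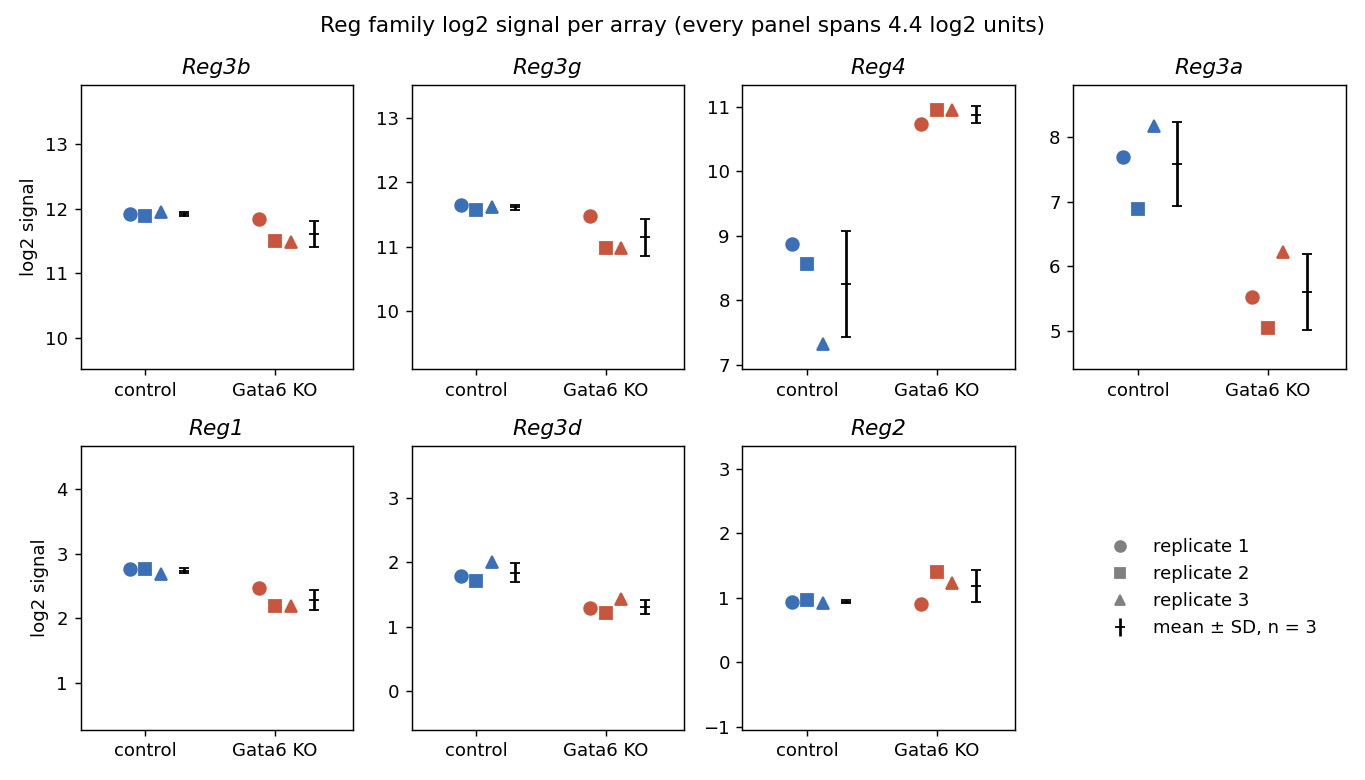
Log2 signal of each Reg gene (vertical axis, every panel spanning 4.4 log2 units) in 3 control and 3 Gata6 KO arrays; symbols give the replicate number and the bar the mean ± SD. The groups are furthest apart for Reg4, at most 8.86 in controls and at least 10.73 in KO-labelled arrays. They do not overlap for Reg3a, at least 6.88 against at most 6.22, and they overlap for Reg2.

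Reg4 read 8.86, 8.56 and 7.32 in controls, against 10.73, 10.95 and 10.95 in KO-labelled arrays. All KO-labelled arrays lay above all controls, and the KO-labelled arrays were close together while control replicate 3 was lower than the other controls. The means were 8.25 ± 0.82 and 10.87 ± 0.13 (SD, n = 3), a 6.17-fold increase, or 2.63 on the log2 scale (SE 0.36, limma adjusted p = 0.00720). Without control replicate 3, the array that stood apart in Xist, the log2 fold change was 2.16 and the limma adjusted p 0.00356. The call was kept without each of the 6 arrays in turn, with adjusted p up to 0.0448, and with control replicates 1 and 3 both left out (2.31, adjusted p = 0.0413). Without moderation of the variances it was lost (adjusted p = 0.0978).

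Reg3a, a member of the type III group of Reg lectins, read 7.69, 6.88 and 8.17 in controls and 5.52, 5.05 and 6.22 in the KO-labelled arrays. Its groups did not overlap, but the lowest control and the highest KO-labelled array were close relative to the spread within either group. Reg3a fell 3.96-fold, or -1.98 on the log2 scale (SE 0.38, limma adjusted p = 0.0243). Leaving out single arrays gave log2 fold changes of -2.33 to -1.69. The call was lost without the first (adjusted p = 0.0823) or the third control (0.0866), and without the first (0.0913) or the second KO-labelled array (0.0966).

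The brightest members, the antibacterial lectins Reg3b and Reg3g, did not pass the test, although their groups did not overlap. Reg3b read 11.92, 11.90 and 11.95 in controls and 11.84, 11.51 and 11.49 in the KO-labelled arrays. Reg3g read 11.64, 11.57 and 11.61 in controls and 11.47, 10.98 and 10.97 in the KO-labelled arrays. In both genes the controls lay within 0.1 of each other, Gata6 KO replicate 1 stood just under them, and replicates 2 and 3 were lower.

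Reg3b had a log2 fold change of -0.31 (SE 0.11, 95% interval -0.56 to -0.06) and did not pass (limma adjusted p = 0.136). Reg3g had one of -0.46 (SE 0.14, 95% interval -0.79 to -0.14) and did not pass either (limma adjusted p = 0.0948). Without Gata6 KO replicate 1 both passed, Reg3b at -0.42 (adjusted p = 0.0406) and Reg3g at -0.63 (adjusted p = 0.0152). Their control means of 11.92 and 11.61 lay near the top of the scale, since the highest signal of any probe set was 12.65 to 12.73 per array. Whether the signal of so bright probe sets is compressed was not tested.

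**Figure D2:**
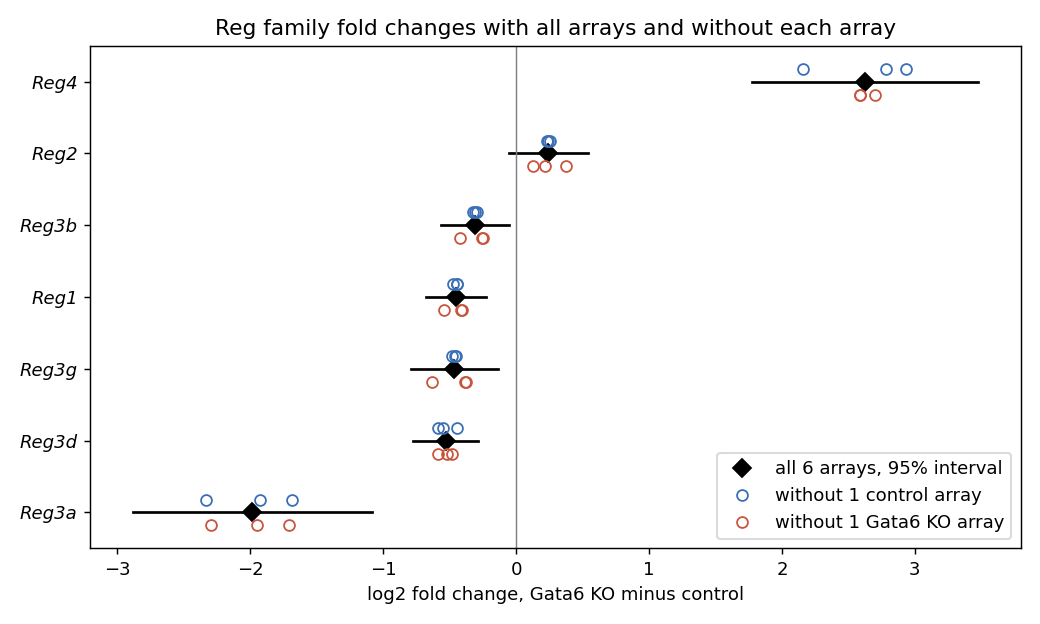
Log2 fold change of each Reg gene, Gata6 KO minus control (horizontal axis); diamonds and lines are the fit on all 6 arrays with its 95% interval, and open circles are the fits that leave out 1 control (blue) or 1 Gata6 KO array (red). Reg4 stays between 2.16 and 2.93 and Reg3a between -2.33 and -1.69, while Reg3b and Reg3g lie furthest from 0 without Gata6 KO replicate 1.

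Members known from the pancreas were dim in ileum. Reg1 read 2.76, 2.76 and 2.69 in controls and 2.46, 2.195 and 2.19 in the KO-labelled arrays, all below the array medians of 3.33 to 3.44. Its groups did not overlap, and Reg1 fell by 0.45 on the log2 scale (SE 0.10, limma adjusted p = 0.0327), a call that was lost without any array other than Gata6 KO replicate 1 (adjusted p 0.0710 to 0.127 without the others). Reg3d read 1.79, 1.72 and 2.00 in controls and 1.28, 1.21 and 1.43 in the KO-labelled arrays. It too had groups that did not overlap, and fell by 0.53 (SE 0.10, limma adjusted p = 0.0252), a call kept without control replicate 2 and lost without any other array (adjusted p 0.0525 to 0.106).

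Reg2 read 0.94, 0.96 and 0.91 in controls and 0.91, 1.40 and 1.22 in the KO-labelled arrays, below the lower quartile of every array (1.67 to 1.80). Its groups overlapped, and its log2 fold change of 0.24 (SE 0.13, 95% interval -0.06 to 0.54) did not pass (limma adjusted p = 0.290). How far the 3 dim members rise above background was not tested, so the size of their differences is uncertain. Dim genes as a whole shifted slightly downward: among the 9969 genes at or below the median signal 64.0% had a negative fold change, with a median of -0.06, against 38.1% and a median of 0.07 among the brighter genes. Of those dim genes 1.59% were called lower.

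As Reg1 and Reg2 are pancreatic genes, markers of pancreatic acinar cells were read beside them. Of 12 measured, 2 fell, the lipase cofactor Clps at -2.25 (SE 0.25, limma adjusted p = 0.00300) and the protease Ctrb1 at -0.63 (SE 0.15, adjusted p = 0.0468), and none rose, with a median of -0.24. At an unadjusted p under 0.05, 4 were lower and 2 higher, Cela1 at 0.35 and Sycn at 1.08 (limma adjusted p = 0.0824 and 0.182). Clps was the brightest of the list in controls, at 6.21 to 6.79. Ctrb1 lost the call without any array other than control replicate 2. The mean log2 level of the list was 3.12 to 3.37 in controls and 2.92 to 3.11 in KO-labelled arrays, and 6 of 12 markers lay below the array median on every array. Trypsin Prss2 and carboxypeptidase Cpa1, defining markers, named here whatever their values, were below the array median on every array and did not pass (limma adjusted p = 0.865 and 0.270). The part of these cells in the Reg1 and Reg3d values was not tested.

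The members were also compared within arrays, which removes what an array shares among its probe sets. The difference of Reg4 minus Reg3g was -2.77, -3.00 and -4.30 in controls and -0.75, -0.03 and -0.02 in the KO-labelled arrays. Its group means differed by 3.09, and those of Reg4 minus Reg3b by 2.94, and in both differences every KO-labelled array lay above every control. Reg3g minus Reg3b was -0.28, -0.33 and -0.34 in controls and -0.37, -0.53 and -0.52 in the KO-labelled arrays, a difference of -0.15 between the means. Each of these 3 comparisons gave an exact two-sided permutation p of 0.1, adjusted 0.1 over the 3, which is the smallest that 3 against 3 arrays allow, so none can pass 0.05. Different probe sets differ in brightness for reasons other than RNA amount, and only the change of a difference between groups is read here.

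**Figure D3:**
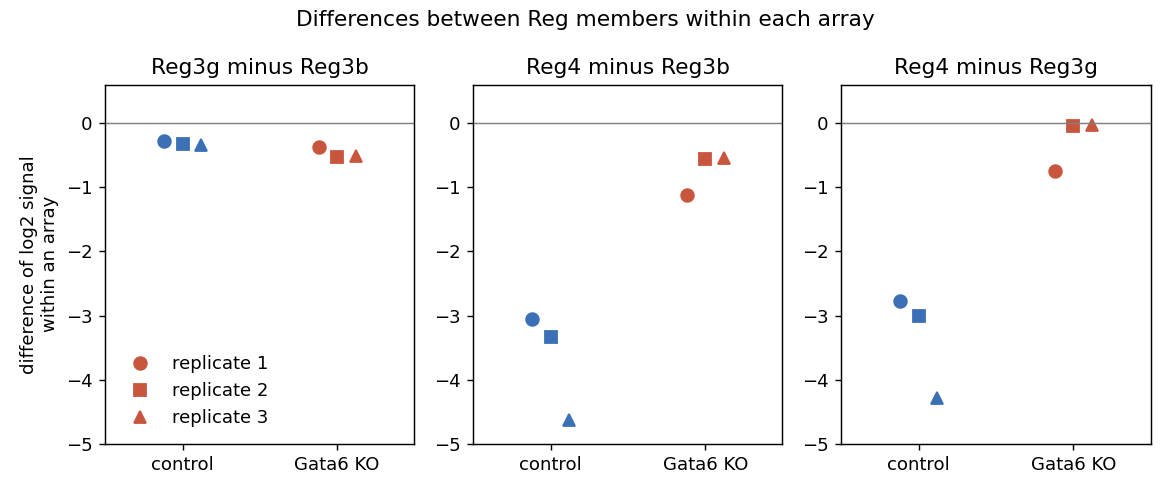
Difference of log2 signal between pairs of Reg genes within each array (vertical axis) for 3 control and 3 Gata6 KO arrays; symbols give the replicate number. Reg4 minus Reg3g lies between -4.30 and -2.77 in controls and between -0.75 and -0.02 in KO-labelled arrays, while Reg3g minus Reg3b lies between -0.34 and -0.28 and between -0.53 and -0.37.

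The genes whose pattern over the 6 arrays was most like that of a member were found by the root mean square difference of log2 values, each gene centred on its own mean. Closest to Reg4 were Abca12, a lipid transporter, at 0.19, Fa2h, which hydroxylates fatty acids, at 0.23, and the cytochrome P450 gene Cyp2c66 at 0.29. Abca12 read 4.97, 5.07 and 4.04 in controls and 7.25, 7.33 and 7.24 in the KO-labelled arrays, so it shared the low value of control replicate 3. Closest to Reg3g were Slc9c1, a sodium/proton exchanger family member, at 0.08, Reg1 at 0.08 and Il12rb2, an interleukin 12 receptor chain, at 0.09. Slc9c1 and Il12rb2 were dim, at most 1.29 and 2.47 on any array, and did not pass (limma adjusted p = 0.0534 and 0.133). Closest to Reg3b were Cxcl10, an interferon-induced chemokine, at 0.02, Rims4 at 0.03 and 4933431E20Rik at 0.03, none of which passed (limma adjusted p 0.0988 to 0.141). Among the members, Reg1 and Reg3g (0.08), Reg1 and Reg3b (0.09) and Reg3b and Reg3g (0.09) were closest, and Reg3a and Reg4 furthest apart (2.46). These are descriptions over 6 arrays that share group and array.

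Genes next to the members were read in the same annotation. Within 200 kb of Reg4 lay 10 other genes, of which 4 were measured, Notch2, Adam30, Phgdh and Zfp697. Their log2 fold changes ran from 0.07 to 0.36, and none passed in limma (adjusted p 0.229 to 0.661, 0 with an unadjusted p under 0.05). Within the same distance of the cluster on chromosome 6 there were 3 other genes, all annotated as pseudogenes and none measured.

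Signals that act upstream of Reg3 genes were mostly below the threshold. Of 15 measured cytokine genes 1 fell and none rose: Il18, a cytokine of the epithelium, at -1.17 (SE 0.26, limma adjusted p = 0.0373), a call kept only without control replicate 2. Of these 15 genes 12 lay below the array median on every array, and Il22 itself was not analysed here. Of 14 receptor genes 2 rose and 1 fell. Tlr2, a receptor for bacterial lipoproteins, rose by 1.31 (SE 0.18, limma adjusted p = 0.00674), and Tlr4, the receptor for lipopolysaccharide, by 0.94 (SE 0.17, adjusted p = 0.0200), a call lost without control replicates 1 or 3 or Gata6 KO replicates 1 or 2 (up to 0.0933). Il17rc, a chain of the interleukin 17 receptor, fell by 0.55 (SE 0.07, limma adjusted p = 0.00593).

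Il22ra1, the receptor chain for IL-22, read 6.68, 7.16 and 7.15 in controls and 6.38, 6.45 and 6.57 in the KO-labelled arrays. Its groups did not overlap, but at -0.53 (SE 0.14) it did not pass (limma adjusted p = 0.0680). Il22ra1 did pass without control replicate 1 (0.0146), after quantile normalization (0.0374), with only brighter genes tested (0.0339) and with an intensity trend and robust moderation (0.0340). None of 11 transducer genes passed in limma, and 3 had an unadjusted p under 0.05. Among them Stat3 differed by 0.11 on the log2 scale (SE 0.08, limma adjusted p = 0.440) and Myd88 by 0.10 (SE 0.10, adjusted p = 0.595), both with overlapping groups. Extl3, a glycosyltransferase described as a receptor of Reg proteins, had a log2 fold change of 0.40 (SE 0.11) and did not pass (limma adjusted p = 0.0722). In 4 alternatives Extl3 did pass: arrays centred on their medians (0.0400), only brighter genes tested (0.0367), an intensity trend with robust moderation (0.0454) and weights per array (0.0440).

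Of 18 genes that respond to IL-22 or STAT3, 1 rose and 1 fell, with a median of -0.02. At an unadjusted p under 0.05, 4 were higher and 5 lower. Of the 18 genes, 4 lay below the array median on every array, and S100a8 and S100a9 also stand in the neutrophil list. Next by p after the called genes came Socs3 at -0.86 and Saa1 at 1.05, which did not pass (limma adjusted p = 0.0699 and 0.0709) although their groups did not overlap. Fut2, the fucosyltransferase of surface glycans, read 7.12, 5.39 and 6.15 in controls and 8.74, 8.55 and 8.52 in the KO-labelled arrays, a difference of 2.38 on the log2 scale (SE 0.38, limma adjusted p = 0.0125). Nos2, the inducible nitric oxide synthase, fell by 0.89 (SE 0.15, limma adjusted p = 0.0138). Leaving out the third control or the second KO-labelled array ended both calls, and leaving out the first KO-labelled array ended that of Fut2, with adjusted p up to 0.0621 for Fut2 and 0.0677 for Nos2.

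Other secreted antimicrobials and lectins also went in both directions. Of 15 antimicrobial genes 7 fell and 1 rose. Beside Reg3a, the lectin Itln1 fell by 2.96 (SE 0.31), the phospholipase Pla2g2a fell by 2.65 (SE 0.23) and the protease Mmp7, which cuts defensin precursors, fell by 2.65 (SE 0.15). The resistin-like protein Retnlb, a secreted product of goblet cells, rose by 3.39 (SE 0.42). For these 4, the limma adjusted p lay between 3.36e-04 and 0.00470, and each call was kept without any single array. Of 13 genes of other secreted lectins 4 fell, among them the galectins Lgals2 at -1.66 (SE 0.12) and Lgals9 at -1.28 (SE 0.15), and 1, Lgals3, rose by 0.75 (SE 0.14, limma adjusted p = 0.0213), a call lost without any array other than Gata6 KO replicate 1. Zg16, a lectin of goblet cells, fell by 1.44 (SE 0.27, limma adjusted p = 0.0211), and lost the call without any control array or Gata6 KO replicate 2. Itln1 and Zg16 are counted in both the antimicrobial and the lectin list.

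**Figure D4:**
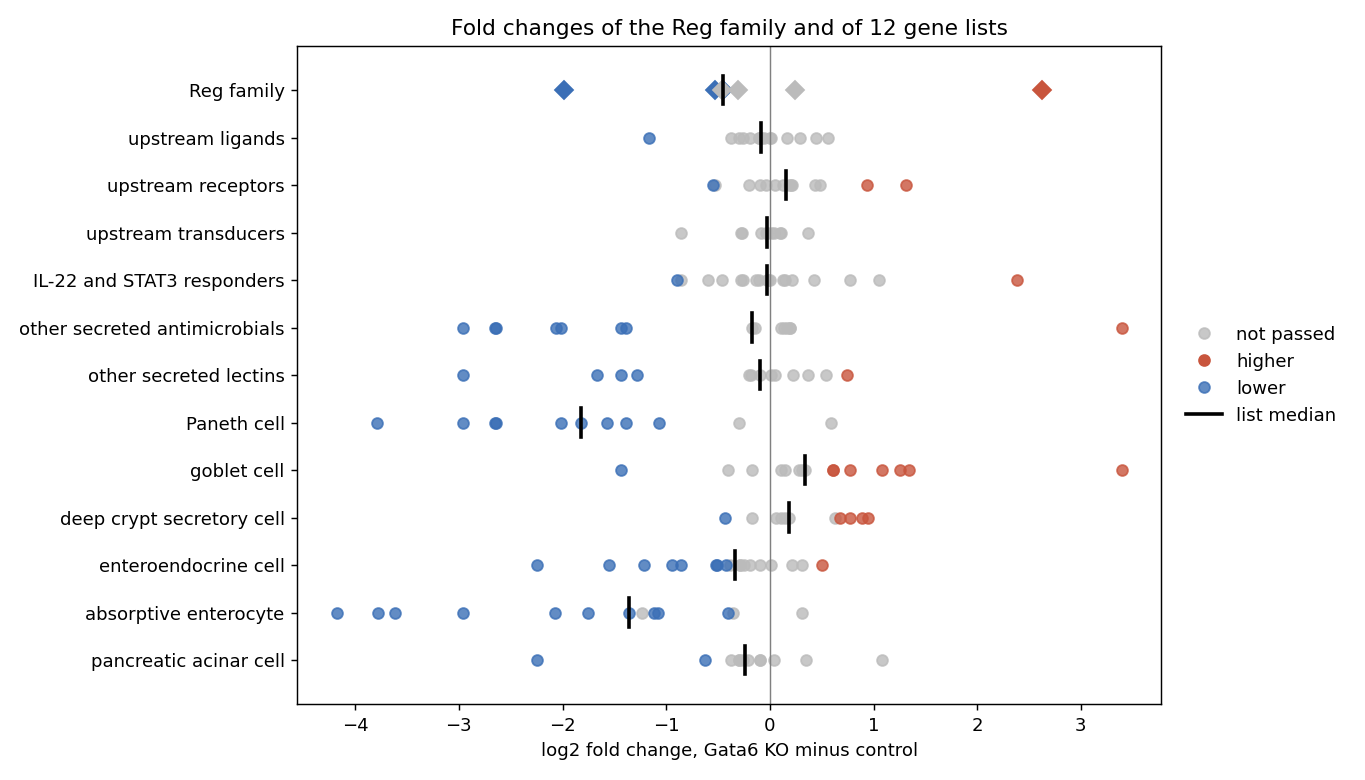
Log2 fold change, Gata6 KO minus control (horizontal axis), of the 7 Reg genes (diamonds) and of the measured genes of 12 lists (circles); colour gives the limma call at an adjusted p under 0.05 and the black tick the median. The Reg genes spread from -1.98 to 2.63, the Paneth cell list has its median at -1.82 and the goblet cell list at 0.34.

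Markers of the cells known to make Reg3 proteins were read beside the members. Of 11 measured Paneth cell genes 9 fell and none rose, with a median of -1.82, and their mean log2 level went from 7.72 to 8.11 in controls to 5.87 to 6.37 under the KO label. Of 13 absorptive enterocyte genes 10 fell and none rose, with a median of -1.35. Reg3b and Reg3g, made by both cell types, had log2 fold changes of -0.31 and -0.46 that did not pass. The Paneth cell list shares the fallen genes Lyz1, Ang4, Mmp7, Pla2g2a and Itln1 with the antimicrobial list, so these counts are not separate. None of the 11 Paneth cell genes lay below the array median on every array, and 2 of 13 enterocyte genes did. The part of these cells in the values of Reg3a, Reg3b and Reg3g was not tested.

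Lists of enteroendocrine, goblet and deep crypt secretory cells, read beside Reg4, went in different directions. Of 18 enteroendocrine genes 8 fell and 1 rose, with a median of -0.34 and a mean level of 4.65 to 4.82 in controls against 4.13 to 4.29 in the KO-labelled arrays. The hormone genes Pyy and Sst fell by 1.55 (SE 0.15) and 0.86 (SE 0.08), with limma adjusted p of 0.00171 and 0.00181. Of 15 goblet cell genes 7 rose and 1 fell, with a median of 0.34 and a mean level of 7.73 to 7.90 against 8.30 to 8.46. Of 11 genes of deep crypt secretory cells 4 rose and 1 fell, with a median of 0.19 and a mean level of 6.48 to 6.53 against 6.70 to 6.94.

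Among the latter, Cd44 rose by 0.89 (SE 0.10, limma adjusted p = 0.00343) and the receptor Kit by 0.67 (SE 0.10, adjusted p = 0.0109), Kit losing the call without Gata6 KO replicate 2 (0.0586). The Notch ligand Dll1 was the gene of the list that fell, by 0.43 (SE 0.08, limma adjusted p = 0.0247), a call lost without any array other than control replicate 1 (up to 0.0966). Agr2 and Spink4, made by the same cells, did not pass (limma adjusted p = 0.311 and 0.522). Dll1, Agr2 and Spink4 were picked with their values in view. The goblet and deep crypt lists share Muc2, Tff3, Agr2 and Spink4.

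As Reg4 is known from secretory cells of the colon, genes of colonocytes were read as well. Of 12 measured, 3 rose and 1 fell, with a median of 0.76 and a mean log2 level of 6.39 to 7.48 in controls against 7.72 to 8.40 in the other group. Control replicate 1 had the highest control level and stood apart in several of these genes, here picked with their values in view. The carbonic anhydrase gene Car1 read 10.96 there against 5.68 and 6.87 in the other controls, the water channel gene Aqp8 5.60 against 2.89 and 2.84, and the cytochrome P450 gene Cyp2c55 7.38 against 5.08 and 4.55. Other genes of the list did not set it apart: Slc26a3 read 7.31 there against 7.44 and 7.34, and Mptx1 5.07 against 5.34 and 5.08. The same array was the highest control for Reg4 (8.86), Fut2 (7.12) and Retnlb (6.77). Without it the log2 fold change of Reg4 was 2.93 (limma adjusted p = 0.0104). The part of any of these cell types in the rise of Reg4 was not tested.

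Markers of ILC3 and Th17 cells, which supply IL-22, were dim on average, with 4 of 7 below the array median on every array. None of 7 measured genes of ILC3 and Th17 cells passed in limma, 1 had an unadjusted p under 0.05, with mean log2 levels of 3.19 to 3.23 (control) and 3.17 to 3.28 (KO label). None of 10 genes of T cells and intraepithelial lymphocytes passed either, again with 1 at an unadjusted p under 0.05. Of 10 macrophage and dendritic cell genes Cd14, the lipopolysaccharide co-receptor, rose by 1.23 (SE 0.23, limma adjusted p = 0.0210), a call lost without control replicates 2 or 3 or Gata6 KO replicates 1 or 2 (up to 0.0939).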

How the data were processed

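Total RNA of whole ileum from 3 control and 3 Gata6 KO mice was hybridised to mouse Gene 1.0 ST arrays, per the labels' protocols. The authors deposited 1 column of log2 values for each mouse. The submitters' processing notes name Affymetrix Expression Console; version, background correction and normalization: not given in the sources used here. That the scale is log2 was read from the values.

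Of 35557 probe sets, 21789 had exactly 1 symbol in GEO's platform annotation, 1621 had several and 12147 were not listed. The brightest probe set by mean over the 6 arrays stood for each of 19938 genes. All genes were fitted with limma 3.58.1 (R 4.3.3, lmFit and eBayes, 1 coefficient, two-sided), with Benjamini-Hochberg adjustment over all genes and a threshold of 0.05, and without a filter on dim genes. SE is the moderated one. The fit was tested on simulated data. Within-array differences were tested by exact permutation over arrays. Promoters came from RefSeq (GRCm38.p6) and were aligned with Biopython 1.88 (match 1, mismatch -1, gap -2 to open and -0.5 to extend). Figures used matplotlib 3.10.9.

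The members, the 27 gene lists (264 genes measured) and the tests were chosen with earlier results of these data known. Named genes were the members, Gata6, up to 4 called genes with the smallest p per list, 5 fixed signalling genes, and the 3 nearest patterns for each of the 3 brightest members. Alternatives covered scaling, a filter on dim genes, probe sets, moderation, weights per array, a block for replicate number, and left-out arrays.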

Additional observations from a re-analysis of the deposited data

How the results depend on the processing

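The alternatives were run for the members, Gata6, the fixed signalling genes, the called list genes and the nearest patterns. No fold change of these turned direction under any alternative run. Other genes printed above, such as Prss2, Cpa1, Agr2, Spink4, Car1 and Aqp8, were not followed through them. Without single arrays, the log2 fold changes ran from 2.16 to 2.93 for Reg4, -2.33 to -1.69 for Reg3a, -0.59 to -0.45 for Reg3d, -0.54 to -0.41 for Reg1, -0.63 to -0.38 for Reg3g, -0.42 to -0.25 for Reg3b and 0.13 to 0.38 for Reg2. The count of members called lower ran from 0 to 3 in these fits and was 0 without control replicates 1 or 3 or Gata6 KO replicate 2, each with 4 at an unadjusted p under 0.05, while 1 was called higher in all of them. Without moderation no member was called by limma's unmoderated fit, 0 lower and 0 higher (4 and 1 unadjusted), with adjusted p of 0.114 for Reg1 (-0.45), 0.153 for Reg3a (-1.98), 0.113 for Reg3d (-0.53) and 0.0978 for Reg4 (2.63). With every probe set fitted on its own, 0 were lower (5 unadjusted), at 0.0807 for Reg1 (-0.45), 0.0774 for Reg3a (-1.98) and 0.0688 for Reg3d (-0.53); that fit adjusts over 35557 tests. Without control replicates 1 and 3 together 0 were lower (2 unadjusted), at -0.48, -1.29 and -0.41 for these genes (adjusted p 0.263, 0.316 and 0.248), with 1 control left that is assumed to vary like the other group. Quantile normalization took Reg1 to -0.36 (adjusted p = 0.0562). With an intensity trend and robust moderation Reg3a had an adjusted p of 0.0507 (-1.98) and Reg3g passed at 0.0435 (-0.46), as it did when only brighter genes were tested (0.0497, -0.46), a filter that leaves out Reg1, Reg2 and Reg3d. The causes were not tested unless the setting itself gives fewer samples or more tests.

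With the replicate number as a block, Reg1 had an adjusted p of 0.0517 at the same -0.45, and 2 members were lower and 1 higher. Reg3a kept its -1.98 with an SE of 0.10 against 0.38 and a limma adjusted p of 0.00197 against 0.0243. Over all genes 766 were higher and 475 lower with the block, against 995 and 648. Whether the numbers pair the mice is unknown here, and correlations of deviations within groups of 3 arrays cannot decide it. Deviations of same-numbered arrays correlated at 0.04, -0.04 and 0.15, the last being the highest of any control and KO-labelled pair. Control replicate 1 correlated best with Gata6 KO replicate 2 (0.08), and control replicate 2 with Gata6 KO replicate 1 (0.06). Over the gene lists 27 genes rose and 40 fell; centring arrays on their medians gave 43 higher, and leaving out single arrays 15 to 25 higher and 24 to 37 lower, the least without Gata6 KO replicate 2. Over all genes, centring moved the split to 1562 higher and 565 lower, every probe set on its own gave 491 and 406, no moderation 168 and 106, single left-out arrays 320 to 806 and 277 to 597, and leaving out control replicates 1 and 3 together 25 and 11. Of the 67 called list genes 36 kept the call without each single array.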

Other observations

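Among markers of cells from outside the ileum, a few were uneven among the arrays labelled Gata6 KO. The pancreatic granule gene Sycn read 4.53, 6.47 and 5.36 there and 4.20 to 4.63 in controls, and albumin, Alb, read 2.06, 4.32 and 2.95 there and 1.77 to 2.07 in controls; neither passed (limma adjusted p = 0.182 and 0.203), and both were named after their values were seen. Gata6 KO replicate 2 was highest in both, as it was for Reg2 at 1.40. The acinar enzymes Cela2a and Cpb1 read 3.01 and 1.59 on that array, within the range of the other arrays for Cpb1 and just under it for Cela2a.

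Gastric mucous cell genes were mostly dim, with 7 of 9 below the array median on every array, and 1, the gland mucus glycosyltransferase A4gnt, rose by 2.64 (SE 0.10, limma adjusted p = 1.13e-04). Of 8 tuft cell genes, Dclk1 and Alox5 rose by 0.88 (SE 0.13) and 0.87 (SE 0.11), with limma adjusted p of 0.0101 and 0.00431.

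Of 12 crypt stem cell genes 2 rose and 2 fell. Of 8 neutrophil genes 1 rose and none fell (1 and 0 unadjusted), and of 7 liver genes 1 fell and none rose (2 and 0 unadjusted). The liver list gene that fell was Apob, at -1.22 (SE 0.19, limma adjusted p = 0.0110). Its call was lost without control replicate 3 or Gata6 KO replicates 1 or 2 (up to 0.0600). Apob had a control mean of 8.89, while Fga and Ahsg of the same list had 2.20 and 2.03 and did not pass. None of 6 pancreatic islet genes (1 unadjusted), 7 B and plasma cell genes (0 unadjusted) and 6 enteric neuron and glia genes (1 unadjusted) passed in limma. Of the 4 measured genes in the list of Reg receptor and trypsin genes none passed in limma, and 2 had an unadjusted p under 0.05.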
